A study of Mus musculus with 2 samples.

Results

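The ion channel genes expressed in mouse intestinal organoids were examined by mRNA-seq. They were chosen by symbol, as genes of the potassium (Kcn), sodium (Scn), calcium (Cacn), chloride (Clcn, Clic), Piezo and transient receptor potential (Trp) channel families counted 10 times or more in either of the 2 libraries. Kcnq1, Kcnn4 and Trpm5 were left out by name. Of the 19294 genes in the table, 91 had such a symbol, 3 were left out by name, 7 were under the count minimum, and 81 remained. Among these, Trpc4ap encodes a partner protein of a TRP channel and not a channel, and was kept as a group of its own. A further 89 matching symbols of the RefSeq annotation were not analysed here. Just inside the minimum, Kcnh1, a voltage-gated potassium channel gene, had 9 counts in control and 10 in treated organoids. Just outside it, Kcna7 had 4 and 9 counts, Kcnk7 had 9 in each, and Kcnn3 had 2 and 7. Scnn1b, Scnn1g, Trpv1, Trpv4, Trpm8, Piezo2, Kcnj13, Kcnj16 and Kcne1, further channel genes of epithelia or sensory cells, were not analysed here.

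Both groups were organoids of the genotype Lgr5-EGFP-IRES-creERT2, in which EGFP and an inducible Cre are made from the Lgr5 locus, grown from jejunal crypts with EGF, Noggin and R-spondin. One culture was the control and 1 received dextran sulfate sodium (DSS), a sulfated sugar polymer used to model colitis, and both are labelled day 4. The age and number of mice and the DSS concentration of the sequenced culture are not given in the sources used here. The labels name the cell type as intestinal stem cells. Of the stem cell markers, Lgr5 was at 263 CPM (scaled counts relative to the library total) in control and 19.2 CPM in DSS organoids and Olfm4 at 183 and 0.238 CPM, and both libraries held markers of enterocytes, goblet cells and enteroendocrine cells. The total was 65493032 counts for control and 59746968 for DSS organoids. With 1 library per condition there was no replicate to compare, conditions were not tested against each other, and every interval stands for counting error alone.

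Ion channels let ions cross membranes down their gradients. In the intestinal epithelium, potassium channels set the membrane voltage that drives secretion and nutrient uptake, chloride channels carry fluid secretion and acidify organelles, and TRP and Piezo channels respond to chemical or mechanical stimuli. Enteroendocrine cells, the hormone-releasing cells of the epithelium, are electrically excitable and use voltage-gated sodium and calcium channels. Many genes of these families are better known from neurons and muscle.

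The ion channel genes were mostly higher in the DSS library. For each gene, the log2 ratio is that of its counts, DSS over control, after scaling of the libraries with trimmed mean of M-values (TMM) factors, given with an exact Clopper-Pearson 95% interval. The median log2 ratio was 1.13 over the 81 genes and -0.06 over the 17235 genes that met the same count minimum. A ratio of 1 or more, that is, at least a doubling, was found for 43 of the 81 genes, where 19.3% of all genes passed this line. A ratio of -1 or less was found for 7, where 20.2% of all genes did. At 2 or more there were 23 (7.87% of all genes), and at -2 or less there were 2 (6.54% of all genes). The counting interval lay above 0 for 54 genes (38.7% of all genes), below 0 for 15 (42.7% of all genes), and held 0 for 12.

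Several of these genes were rare. Only 65 of the 81 had at least 50 counts in one library, 9 reached the minimum of 10 counts only in the DSS library and 2 only in the control library, and for these the direction follows in part from the minimum. When the minimum was asked of both libraries, 70 of the ion channel genes stayed, 35 with a ratio of 1 or more (16.8% of all genes so chosen) and 5 with -1 or less (18.9%). Of the 25 ion channel genes with a mean level over 10 CPM, 10 were at 1 or more, or 40.0%, against 12.8% of all genes at this level. In the same range 3 reached -1, or 12.0%, against 16.1% of all genes. Of the 24 with a mean level under 1 CPM, 14 reached 1, or 58.3%, where the share of all genes was also higher, at 33.4%, and 2 reached -1, or 8.33%, against 21.7%. Of the 32 between these levels, 19 reached 1, or 59.4%, against 21.2%, and 2 reached -1, or 6.25%, against 28.2%. When libraries were scaled by total counts alone, the median of all genes moved by -0.26. With this scaling, 34 of the ion channel genes reached 1 (15.4% of all genes) and 9 reached -1 (26.2% of all genes).

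**Figure D1:**
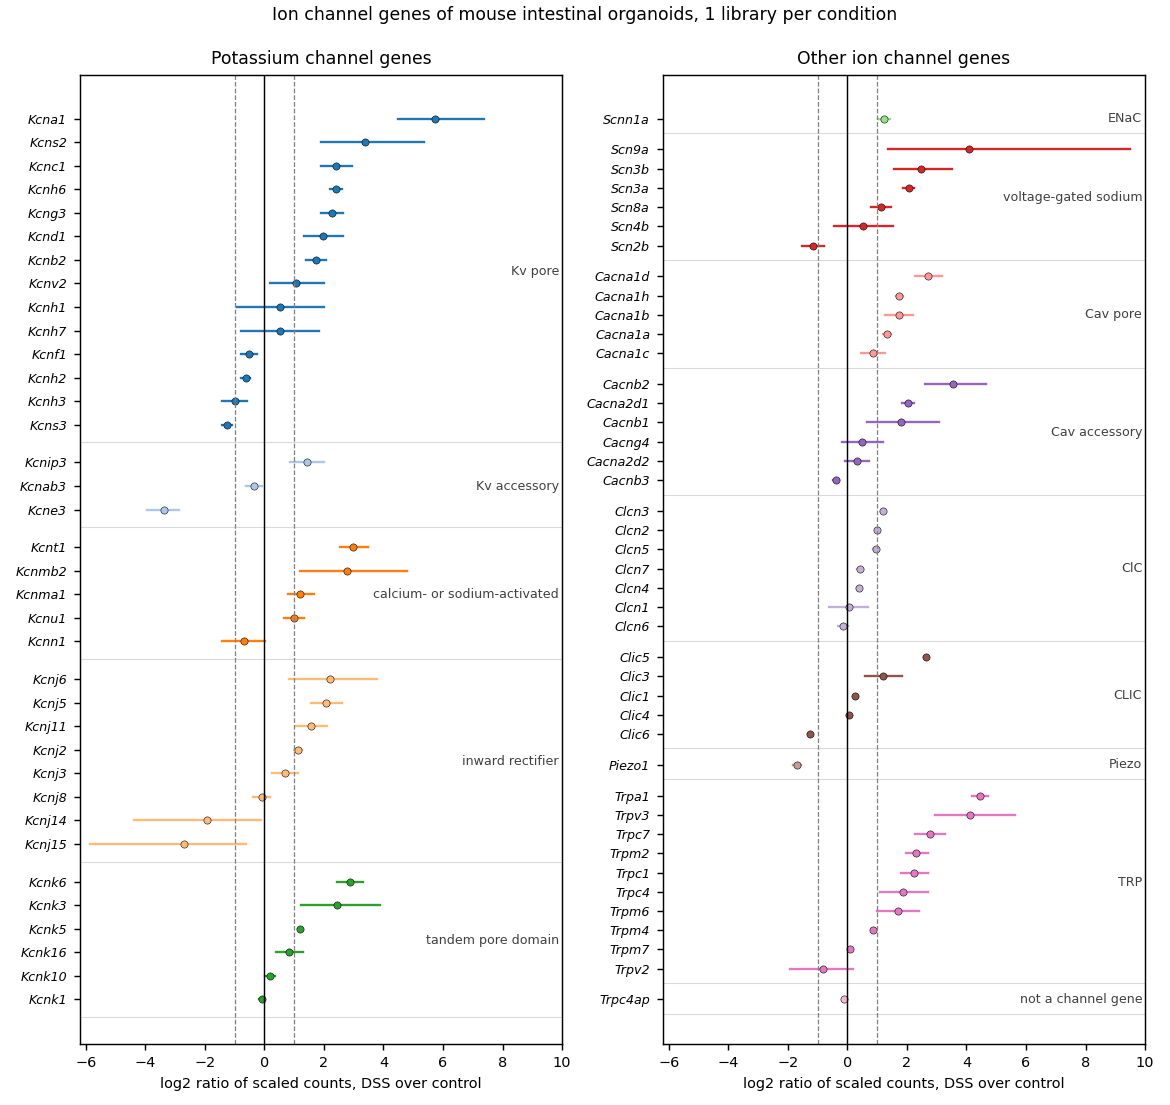
Log2 ratio of scaled counts, DSS over control, for 78 of the 81 genes by family (points), with the exact 95% interval of counting error (bars) and dashed lines at 1 and -1. The TRP and Cav pore genes lie mostly to the right, and Kcne3, Piezo1, Clic6 and Kcns3 lie to the left of -1.

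**Figure D2:**
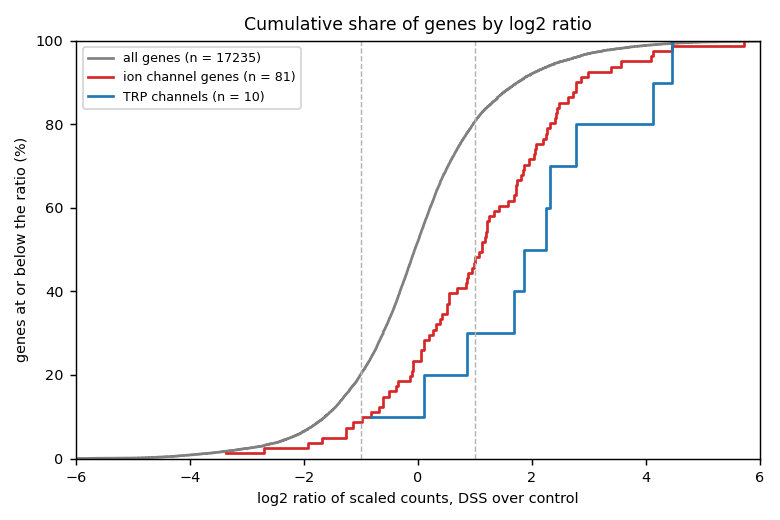
Cumulative share of genes (y axis, percent) at or below a given log2 ratio (x axis) for all 17235 genes, the 81 ion channel genes and the 10 TRP channels, with dashed lines at ratios of 1 and -1. The curve of the ion channel genes lies to the right, with a median of 1.13 against -0.06.

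The markers of several epithelial cell types moved between the libraries beside these genes. In all marker lists, the most abundant marker is the one with the most counts, not divided by transcript length. All 8 enteroendocrine markers were listed, and 7 were at 1 or more. Their summed level went from 730 to 3650 CPM, with Chgb, a granin of hormone granules, the most abundant in both libraries, while Neurog3, the factor of their progenitors, was at -3.14. All 6 enterocyte markers were at 1 or more, from 1903 to 19614 CPM in sum, with Sis the most abundant, and so were all 5 goblet cell markers, from 703 to 11135 CPM, with Fcgbp the most abundant.

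The markers of the crypt base and of cycling cells were lower in the DSS library. All 5 stem cell markers and all 5 cycling markers were at -1 or less, from 832 to 130 CPM and from 940 to 59.5 CPM in sum. Lgr5 had the most counts of the stem cell markers in the control library and Smoc2 in the DSS library, and Mki67 the most of the cycling markers. The 4 Paneth cell markers went from 494 to 241 CPM, led by Lyz1 in control and Itln1 in DSS organoids, and the 4 listed tuft cell markers from 7.08 to 2.62 CPM, led by Pou2f3 and Trpm5.

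Markers of cells outside the epithelium were listed in part. Of the 9 neuron and glia markers, 6 were listed, 4 at 1 or more and 1 at -1 or less, and they went from 13.1 to 78.0 CPM in sum. Ret made up 60.5 CPM of the latter, Snap25 had 65 and 375 counts, and Elavl4 4 and 13. Uchl1 and Gfap were not analysed here. Smooth muscle and interstitial cell markers, 2 of 6 listed, summed to 39.4 CPM in control and 23.7 CPM in DSS organoids, of which Kit held 39.3 and 23.4, and Acta2 had 4 and 20 counts. The sums of the 2 listed fibroblast markers, led by Col1a1, were 0.447 and 0.567 CPM. Those of the 2 endothelial markers, led by Tek in DSS organoids, were 0.335 and 2.78 CPM. Those of the 3 immune markers, led by Cd68 in control and Itgam in DSS organoids, were 12.2 and 23.3 CPM. Actg2, Myh11, Des, Cnn1, Ptprc, Cd3e and Adgre1 were not analysed here either. The part of these cell types in the ratios of the ion channel genes was not tested. In a bulk library, fewer or more cells of a type and less or more RNA per cell cannot be told apart.

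**Figure D3:**
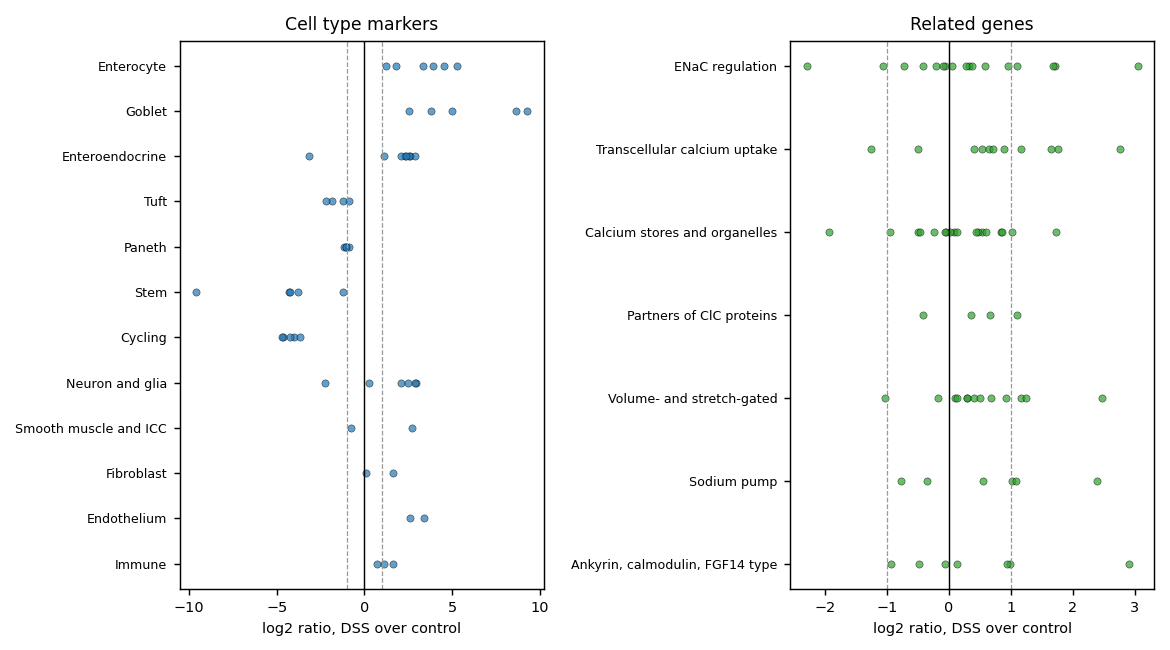
Log2 ratio, DSS over control, of each gene (points) in the lists of cell type markers (left) and of related genes (right), with dashed lines at 1 and -1 and a different x axis range on each side. ICC stands for interstitial cells of Cajal. Enterocyte and goblet cell markers lie at 1 or more, and stem and cycling markers at -1 or less.

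A small number of genes held much of the summed counts of the 81 genes. The 5 with the most counts, among them Trpc4ap in control organoids, held 44.8% in control and 52.6% in DSS organoids. The 10 with the most counts, Trpc4ap included, held 71.6% and 74.1%. Levels of the 81 genes are compared here in CPM per kilobase of annotated transcript. On this scale Clic1 was highest in both libraries, at 115 in control and 139 in DSS organoids. The next levels in control organoids were 56.3 for Clic6 (31.0 with its longest transcript), 34.2 for Trpc4ap and 26.1 for Kcnk1. In DSS organoids they were 67.2 for Clic5, 52.3 for Clcn3 and 46.9 for Clcn2. With the longest transcripts Clcn3 was at 38.4 and Clcn2 at 42.2, so that the order of these turned. All 81 genes summed to 91122 counts in control and 113089 in DSS organoids (log2 ratio 0.70, interval 0.69 to 0.71). Clic5 alone made up 41.5% of the difference in summed CPM, and without Clic5 the ratio of the sums was 0.47, with an interval from 0.46 to 0.48. Under the same scaling, the sums over all 17235 genes had a log2 ratio of 0.26. The sums of the 81 genes leave out Kcnq1 (13518 and 1768 counts, log2 ratio -2.55), Kcnn4 (-3.14) and Trpm5 (-0.88), all lower in the DSS library.

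**Figure D4:**
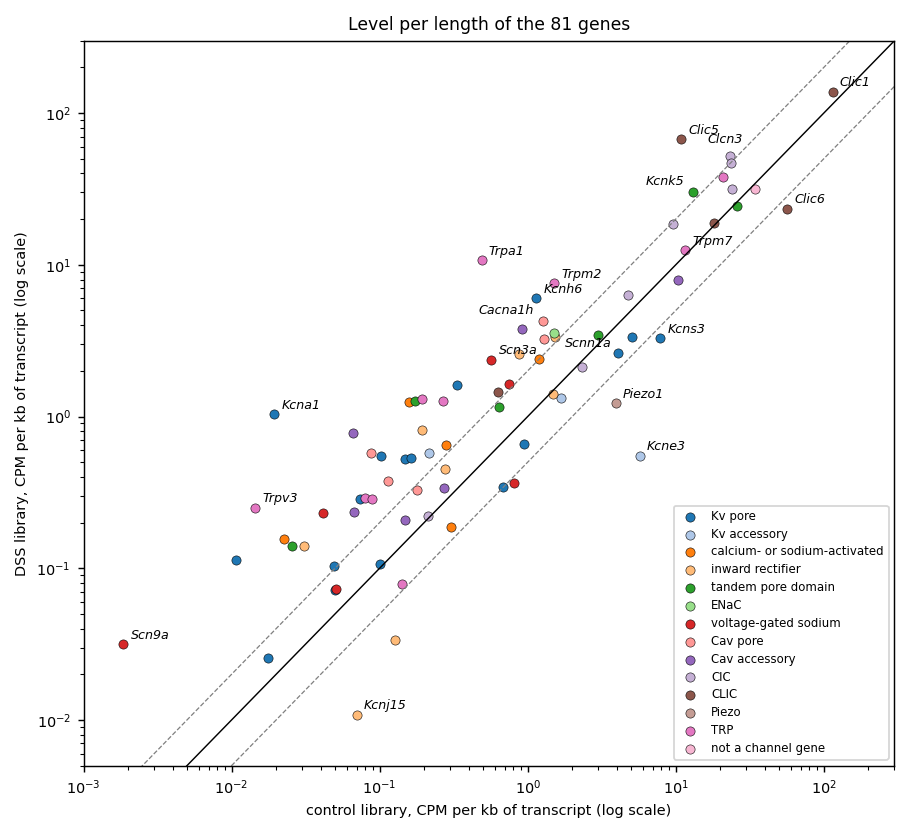
Level of each of the 81 genes in CPM per kilobase of transcript, control (x axis) against DSS (y axis), both on log scales, colored by family, with the line of equal levels (solid) and of a doubling or halving (dashed). Clic5, Trpa1 and Kcna1 lie far above the solid line and Kcne3 and Piezo1 below it.

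The chloride intracellular channel (CLIC) genes held opposite changes and the gene with the highest level per length among the 81 genes. CLIC proteins exist in soluble and membrane-bound forms, and CLIC5 is known as a partner of the ezrin-linked actin cortex of microvilli and stereocilia. Clic5 was counted 4540 times in control and 21533 times in DSS organoids, 63.4 and 394 CPM (log2 ratio 2.63, interval 2.59 to 2.68). This was the largest gain in CPM among the 81 genes. Clic6, a family member known from secretory epithelia, went the other way, with 8333 and 2642 counts (log2 ratio -1.27, interval -1.33 to -1.21). Clic1 was at 0.27 and Clic4, at 0.05, had an interval that held 0 and turned negative with total counts. Clic3 had 36 and 63 counts (log2 ratio 1.20).

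The 250 bases before the RefSeq start of Clic5 are shown because this gene changed most in CPM. They lie at chr17:44188322-44188571 on the plus strand of GRCm38.p6, and capitals mark the GC box letters GGGCGG, read here on the opposite strand 63 and 48 bases before the start.
Clic5: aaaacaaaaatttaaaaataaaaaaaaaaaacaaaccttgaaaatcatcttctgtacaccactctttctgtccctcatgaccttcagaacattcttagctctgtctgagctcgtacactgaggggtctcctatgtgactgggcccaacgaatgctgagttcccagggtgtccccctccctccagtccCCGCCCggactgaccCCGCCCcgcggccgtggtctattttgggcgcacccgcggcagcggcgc

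Among the ClC proteins, which are chloride channels of the plasma membrane or chloride-proton exchangers of endosomes and lysosomes, log2 ratios ran from -0.14 to 1.18. Of the 7 genes, 6 were above 0 and 2 reached 1, with a median of 0.42, or 0.16 with total counts. Clcn3, an endosomal exchanger, had 6903 and 11941 counts (log2 ratio 1.18, interval 1.14 to 1.22). Clcn2, a basolateral chloride channel of the intestinal epithelium, had 4720 and 7218 counts and lay on the line of 1, with an interval of 0.95 to 1.05. Clcn5, which serves endosome acidification, was at 0.96, with 2098 and 3107 counts. The lysosomal exchanger gene Clcn7 was at 0.42. Clcn4, of which 11.5% of the exonic bases overlap an annotated gene on the opposite strand, was at 0.39. Clcn6 and the muscle chloride channel gene Clcn1, with 48 and 38 counts, had intervals that held 0. Of 4 listed genes for partners of ClC proteins, Tmem9b was highest, at 1.10, and Tmem9 lowest, at -0.42, while Ostm1, the partner of CLC-7, was at 0.36.

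TRP channels are nonselective or calcium-permeable cation channels that respond to irritants, temperature, lipids or internal calcium. Their 10 genes had a median log2 ratio of 2.06, with 9 above 0, 7 at 1 or more and none at -1 or less. Trpa1, the irritant receptor known from enterochromaffin cells, the serotonin-releasing enteroendocrine cells, was counted 132 times in control and 2212 times in DSS organoids. Its level went from 1.84 to 40.5 CPM (log2 ratio 4.46, interval 4.20 to 4.72), higher than in 99.3% of all genes. Trpv3, a warmth-sensitive channel known from keratinocytes, had 6 and 80 counts (log2 ratio 4.13, interval 2.94 to 5.61), and so rested on few control reads. Trpc7 had 40 and 208 counts (log2 ratio 2.77). Trpm2, an oxidant-activated channel, had 79 and 301 counts (log2 ratio 2.32, interval 1.96 to 2.69). Trpc1 was at 2.25, with 56 and 203 counts, Trpc4 at 1.87, with 19 and 53, and the magnesium channel gene Trpm6 at 1.69, with 26 and 64. The 6 genes named after Trpa1 were rare in control organoids, with 6 to 79 counts.

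The TRP genes with the most reads had smaller ratios. Trpm4, a calcium-activated sodium and potassium channel, had 5507 and 7671 counts (log2 ratio 0.87, interval 0.82 to 0.92). Trpm7, which carries magnesium and holds a kinase domain, had 5801 and 4762 counts. Its ratio was 0.10 with TMM factors, -0.15 with total counts and -0.11 after a trend with transcript length was removed, so its direction depends on the processing. Trpv2 had 28 and 12 counts and an interval that held 0. As summed counts, in which Trpm4 and Trpm7 dominate, the TRP genes were at 0.80, where all genes were at 0.26. The epithelial calcium channel gene Trpv6 had 2 counts in each library and was under the minimum. Of the related genes of calcium uptake, 4 of 11 reached 1 and 1 reached -1, with a median of 0.71. Slc8a1, the sodium-calcium exchanger, was highest at 2.76 and the claudin gene Cldn2 lowest at -1.25. S100g, the calcium-binding protein of enterocytes, was at 1.76 and the vitamin D receptor gene Vdr at 0.40.

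Piezo1, the stretch-activated channel of epithelial cells, went against most of the others. It was counted 2315 times in control and 551 times in DSS organoids, 32.3 and 10.1 CPM (log2 ratio -1.68, interval -1.82 to -1.55). Of its exonic bases, 24.6% overlap the gene Ctu2 on the opposite strand. The libraries were stranded, but whether the counting used strand is not given in the sources used here. Among 13 other volume- and stretch-gated channel genes, 3 reached 1 and 1 reached -1, with a median of 0.41. Tmc5 was highest, at 2.47, and the polycystin gene Pkd2 lowest, at -1.03. Lrrc8a, the essential subunit of the volume-regulated anion channel, was at 0.93.

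The 250 bases before the RefSeq start of Piezo1 are shown as those of a gene that was lower in the DSS library. They lie at chr8:122551330-122551579 on the minus strand of GRCm38.p6, and capitals mark a GC box (GGGCGG) beginning 40 bases and the TATA box letters TATAAA beginning 24 bases before the start.
Piezo1: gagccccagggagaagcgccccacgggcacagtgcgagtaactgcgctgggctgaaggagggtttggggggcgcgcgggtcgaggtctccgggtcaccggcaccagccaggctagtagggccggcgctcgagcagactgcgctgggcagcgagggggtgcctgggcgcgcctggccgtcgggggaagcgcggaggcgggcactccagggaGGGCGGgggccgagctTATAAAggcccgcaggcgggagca

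Voltage-gated calcium (Cav) channels couple electrical activity to calcium entry and hormone release. All 5 pore genes were higher in the DSS library, with a median log2 ratio of 1.73, and 4 of them were at 1 or more. Cacna1h, a T-type channel, had 743 and 1901 counts (log2 ratio 1.74, interval 1.62 to 1.87). Cacna1a, the P/Q-type channel, had 698 and 1350 counts (log2 ratio 1.34, interval 1.21 to 1.47). The L-type channel gene Cacna1d went from 50 to 251 counts (log2 ratio 2.72, interval 2.27 to 3.18), and the N-type gene Cacna1b from 57 to 144. The other L-type gene, Cacna1c, had 91 and 127 counts (log2 ratio 0.87).

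The accessory subunits, which bring the pore to the membrane and tune its gating, were less uniform. Of their 6 genes, 3 reached 1 and none reached -1. The median of 1.15 stood beside 0.50 for genes with 10 counts or more in both libraries. Summed counts of the 6 genes were at 0.30, and those of all genes at 0.26. Cacnb2 had 10 and 90 counts (log2 ratio 3.56, interval 2.61 to 4.67). Cacna2d1 had 254 and 795 counts (log2 ratio 2.03, interval 1.83 to 2.24). Cacnb1 was at 1.80 on 9 and 24 counts. Cacnb3, which had the highest level per length of them in control organoids, 10.3 CPM per kilobase, had 1850 and 1084 counts and was at -0.38, with an interval from -0.49 to -0.27. The intervals of Cacng4 and Cacna2d2 held 0.

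The voltage-gated sodium channel genes comprised 3 pore genes and 3 accessory genes. Scn3a, a channel gene known from enterochromaffin cells, was counted 348 times in control and 1106 times in DSS organoids (log2 ratio 2.06, interval 1.88 to 2.23). Scn8a had 113 and 189 counts (log2 ratio 1.13). Scn9a had 1 and 13 counts, so that its interval ran from 1.35 to 9.50. Of the accessory genes, Scn3b was higher, with 12 and 51 counts, and Scn2b lower, with 249 and 86 counts and a ratio of -1.15. Scn4b, with 18 and 20 counts, had an interval that held 0. Scnn1a, a subunit of the epithelial sodium channel ENaC, which absorbs sodium under aldosterone, had 332 and 599 counts (log2 ratio 1.24, interval 1.04 to 1.44). It was the only ENaC gene among the 81. Of 17 genes of ENaC regulation, 4 reached 1 and 2 reached -1, with a median of 0.28. The aldosterone-induced kinase gene Sgk1 was highest, at 3.05, with 316 and 1994 counts, and the mineralocorticoid receptor gene Nr3c2 was at 1.70. Hsd11b2, which shields that receptor from glucocorticoids, was lowest, at -2.30, with 264 and 41 counts.

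Voltage-gated potassium (Kv) channels end or limit electrical activity. Of the 17 pore genes, 9 reached 1 and 1 reached -1, and the median log2 ratio was 1.08. The summed counts of these 17 genes, 4629 and 4092, were at 0.21, below the 0.26 of the summed counts of all genes. Such sums weigh genes by their reads. The Kv pore gene Kcnq1, left out by name, is not in this sum and had 13518 and 1768 counts (log2 ratio -2.55). The sum therefore does not describe all Kv pore reads of these libraries. The 9 genes at 1 or more had between 4 and 252 control counts. Kcna1, of the Shaker type, was counted 5 times in control and 203 times in DSS organoids (log2 ratio 5.73, interval 4.49 to 7.37), the highest of the 81 genes. Kcnc1 had 40 and 163 counts (log2 ratio 2.42). The delayed rectifier gene Kcnb2 was at 1.72, with 109 and 275 counts, and Kcng3, which encodes a silent subunit that joins other Kv channels, was at 2.27, with 80 and 294 counts.

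Of the Kv pore genes, 5 were lower in the DSS library, with intervals below 0. Kcns3, another silent subunit, had 1314 and 419 counts (log2 ratio -1.26, interval -1.42 to -1.10). Kcnh2, the ERG channel of cardiac repolarization, had 1075 and 534 counts (log2 ratio -0.62). Kcnf1, also silent on its own, was at -0.52. Within the Kcnh genes the directions differed, since Kcnh6, an ERG-type channel like Kcnh2, had 252 and 1017 counts (log2 ratio 2.40, interval 2.20 to 2.61). Kcnh3 was at -0.99, with 179 and 69 counts. Of the remaining genes, Kcns2 was at 3.39 and Kcnd1 at 1.96, Kcnv2 was at 1.08 on 18 and 29 counts, and the intervals of Kcnh1 and Kcnh7 held 0.

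A stretch of 23 bases before the RefSeq start of Kcnh6, at chr11:106007962-106007984 on the plus strand of GRCm38.p6, is shown because it holds both parts of the element bound by REST, a repressor of neuronal genes. Capitals mark the left part (TTCAGCACC) and the right part (GGACAGC), which stand 7 bases apart, and the stretch begins 186 bases before the start. The 250 bases before this start also hold annotated exon sequence, so only this stretch is shown.
Kcnh6: TTCAGCACCacgacgcGGACAGC
Both parts in this order within 30 bases, on either strand, were found before the start of 5 of 27025 genes, or 0.0185%. Among the 56 ion channel genes that have a promoter entry, Kcnh6 was the only one. The right part alone was found for 7 of these 56, or 12.5%, against 7.27% of genes with at least 10 counts. Of these 7, 5 had log2 ratios above 0 (Kcnh6, Kcnj5, Cacnb1, Kcnip3 and Kcnk10) and Kcnk1 and Kcne3, the latter before its other start, had ratios below 0. Ratios above 0 were found for 62 of the 81 ion channel genes and for 8272 of all 17235 genes. The motif was chosen after this sequence had been read, so its match in Kcnh6 was known in advance and its rarity tests nothing. The part of REST in these ratios was not tested.

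Other motif letters were searched in the same 250 bases on both strands. The GC box GGGCGG was found for 37 of the 56 ion channel genes, or 66.1%, where 59.0% of the 12293 genes with a promoter entry and at least 10 counts and 35.4% of all promoters held it. TATAAA was found for 6, or 10.7%, against 9.09% and 14.3%. The letters CTTTGAT of TCF/LEF sites were found for Clcn5 alone and CAGATGG of NEUROD sites for Kcnip3 alone, where 3.72% and 5.05% of all promoters held them. Neither TTTATGG (CDX; 2.83% of all promoters) nor CAAAGTCCA (HNF4; 0.451%) was found. A match is a description of letters and not of binding.

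Accessory subunits of Kv channels included the gene with the lowest log2 ratio, although the difference in CPM was larger for Clic6, with 116 in control and 48.3 in DSS organoids. Kcne3, the beta subunit that holds KCNQ1 open at the basolateral membrane of crypt cells, was counted 433 times in control and 32 times in DSS organoids. Its level went from 6.05 to 0.585 CPM (log2 ratio -3.37, interval -3.94 to -2.85), and only 1.75% of all genes were lower. Its pore partner Kcnq1 had 13518 and 1768 counts (log2 ratio -2.55), and the calcium-activated channel gene Kcnn4 was at -3.14, both outside the 81 genes. Kcnip3, a calcium sensor that binds Kv channels, was at 1.42 on 42 and 86 counts, and Kcnab3 was at -0.35.

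RefSeq lists alternative starts for Kcne3, and the 250 bases before the one with no annotated exon in this window are shown, because Kcne3 had the lowest ratio of the 81 genes. They lie at chr7:100178433-100178682 on the plus strand of GRCm38.p6, with GC boxes (GGGCGG, in capitals) 97 and 47 bases before the start.
Kcne3: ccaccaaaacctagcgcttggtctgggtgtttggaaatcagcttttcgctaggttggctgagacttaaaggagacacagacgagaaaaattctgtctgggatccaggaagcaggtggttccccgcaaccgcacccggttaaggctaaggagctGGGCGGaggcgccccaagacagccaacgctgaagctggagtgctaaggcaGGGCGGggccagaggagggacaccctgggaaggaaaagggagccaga

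The tandem pore domain (Kcnk) genes carry background potassium current. Among the potassium channel genes kept here, they held those with the highest level per length. These were Kcnk1 in control, at 26.1 CPM per kilobase, and Kcnk5 in DSS organoids, at 30.1. Kcnq1, left out by name, was not compared per length. It had 189 CPM in control organoids, where Kcnk1 had 46.3, and 32.3 CPM in DSS organoids, where Kcnk5 had 102. Of the 6 Kcnk genes, 3 reached 1 and none reached -1. Kcnk5, an alkaline-activated channel of epithelia, had 3166 and 5586 counts (log2 ratio 1.21, interval 1.14 to 1.27). Kcnk1, a weakly inward-rectifying member of this family, had 3311 and 2373 counts (log2 ratio -0.09, interval -0.17 to -0.02). Kcnk6 had 51 and 283 counts (log2 ratio 2.86, interval 2.43 to 3.32). Kcnk3 was at 2.44 on 7 and 29 counts. Kcnk16 was at 0.84. Kcnk10, at 0.20, turned to -0.06 with total counts.

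Of the 8 inward rectifier (Kcnj) genes, which hold the resting voltage near the potassium potential, 4 reached 1 and 2 reached -1. Kcnj2, the classical inward rectifier, had 597 and 999 counts (log2 ratio 1.13, interval 0.98 to 1.28). Kcnj5, a subunit of G protein-gated channels, had 43 and 138 counts (log2 ratio 2.07), and its partner Kcnj3, with 31.1% of its exonic bases under a gene on the opposite strand, was at 0.69. Kcnj11, the pore of the ATP-sensitive channel of endocrine cells, had 44 and 100 counts (log2 ratio 1.57, interval 1.05 to 2.12). Kcnj8, the other ATP-sensitive pore gene, had 257 and 185 counts and an interval that held 0. Kcnj15, at -2.70 on 17 and 2 counts, Kcnj14, at -1.93 on 15 and 3, and Kcnj6, at 2.20 on 6 and 21, rested on few reads. Among the 5 genes of calcium- or sodium-activated channels, Kcnt1, a sodium-activated channel, had 45 and 272 counts (log2 ratio 2.98, interval 2.52 to 3.47). Kcnma1, the large-conductance channel, was at 1.21, with 70 and 124 counts, and its accessory gene Kcnmb2 at 2.78 on 4 and 21 counts. Kcnu1 was at 0.99, with 124 and 188 counts, and the interval of Kcnn1 held 0.

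Genes that work with these channels were read in the same way. The sodium pump maintains the gradients that channels use, and of its beta subunit genes Atp1b1 was at 1.09 and Atp1b3 at -0.78. Of its 6 listed genes, 3 reached 1 and none reached -1. Of 18 genes of calcium stores and organellar channels, 2 reached 1 and 1 reached -1, with a median of 0.10. Atp2a3, a pump of the endoplasmic reticulum, was highest, at 1.73, and the calcium release channel gene Itpr2 lowest, at -1.94. Of 7 regulators of the ankyrin, calmodulin and FGF14 type, Fgf14, a sodium channel modulator, was at 2.91 on 19 and 109 counts, and the lowest with at least 50 counts was Dlg1, at -0.48.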

How the data were processed

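The mRNA-seq of 1 control and 1 DSS-treated organoid culture was used. Libraries were made with the TruSeq Stranded mRNA kit. The values the authors deposited are unnormalized read counts, 1 row per NCBI gene identifier. Files for each sample carry FPKM in their names, yet their values equal these counts in all 19294 genes. The submitters' processing notes name HISAT2 and StringTie, and versions, the genome build and the strand setting of the counting are not given in the sources used here.

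Counts were scaled with TMM factors (1.09 for the control, 0.915 for the DSS library) in edgeR 4.0.16 under R 4.3.3. Intervals were computed in scipy 1.17.1 with Python 3.11.15, pandas 2.3.3 and numpy 2.4.6, and plots drawn with matplotlib 3.10.9. Without replicates no test was run, and genes were counted past log2 ratios of 1 and 2 in either direction. Levels per length used the median length of the annotated protein-coding transcripts of GENCODE M21 (GRCm38), matched by symbol for 81 of 81 genes. For Trpm2 and Kcnj11 this length was short (731 and 705.5 bases). Their levels per length are drawn in the plot of levels but are not compared in the text. Promoter sequences are those of RefSeq (GRCm38.p6), matched by gene identifier for 56 of the 81 genes.

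The ion channel genes, the related lists (ENaC regulation, calcium uptake, calcium stores, ClC partners, volume- and stretch-gated channels, sodium pump, channel regulators) and the marker lists were chosen with earlier results of these data known. By rule, the text names genes at 1 or more or -1 or less with at least 50 counts, the extremes and the most abundant of each family, a list of known epithelial channels, genes at the count minimum and the extremes of each related list. The remaining genes were named after their values were seen. Alternatives were scaling by upper quartile, by total counts or with DESeq2 1.42.0 size factors, thinning to equal depth, adding a prior count of 2, removal of trends with length or GC content (statsmodels 0.14.6, span 0.3), other count minimums, means and sums. A few single genes are not reported here, though counts and medians include them. The code was tested on simulated counts.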

Additional observations from a re-analysis of the deposited data

How the results depend on the processing

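No paired analysis was possible because each condition was 1 library, and no replicate could be left out. The median of the ion channel genes kept its sign under every scaling, count minimum and trend removal tried, and lay between 0.87 with total counts and 1.22 with upper quartile factors. The number of ion channel genes at -2 or less went from 2 to 1 with a prior count of 2, with at least 10 counts in both libraries or with at least 50 in one, and to 3 with total counts or without the GC trend. Kcnj15, with 17 and 2 counts, is under both of these minimums. Several family medians moved. With total counts they were 0.16 for ClC and 0.016 for CLIC, and CLIC was at 0.36 with upper quartile factors and 0.23 without the GC trend. With the mean in place of the median, inward rectifiers were at 0.37 and CLIC at 0.58. With summed counts, Kv pore genes, Kcnq1 left out, were at 0.21, Cav accessory genes at 0.30 and tandem pore domain genes at 0.69. On the same measure ClC was at 0.89, CLIC at 0.77 and TRP at 0.80. The summed counts of all genes were at 0.26. With at least 10 counts in both libraries, Kv pore genes were at 0.80 and Cav accessory genes at 0.50. With at least 50 in one, Kv pore genes were at 1.78 and ClC at 0.69. Without a count minimum the calcium- or sodium-activated genes were at 1.70. Trpm7 reversed, to -0.15 with total counts and -0.11 without the length trend, and the cause was not tested. Of 413 recomputed values of 59 named genes, 356 stayed within their counting intervals. With the longest annotated transcript as the length, 10 of the 10 highest levels in the control and 9 of 10 in the DSS library were shared with those reported.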
